A study of Mus musculus with 6 samples.

Results

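A set of 10 genes for nuclear receptors that sense lipids, foreign compounds, oxysterols and thyroid hormone were measured in hepatocytes of mice with carbon tetrachloride (CCl4) liver injury. They are Rxra, the peroxisome proliferator-activated receptor (PPAR) genes Ppara, Ppard and Pparg, the liver X receptor (LXR) genes Nr1h3 and Nr1h2, Nr1i2 for the pregnane X receptor (PXR), Nr1i3 for the constitutive androstane receptor (CAR), Thrb for a thyroid hormone receptor and Rora for an orphan receptor of the clock. The members were taken by gene symbol, and all 10 were found among the 34745 genes counted and passed the filter on low counts, which left 14417 genes. The libraries came from primary hepatocytes of 12-week-old male mice. All carried floxed Foxa2 alleles and all received CCl4 over 4 weeks, with 2 injections of 0.25 ml/kg in each. The 3 FOXA2f/f libraries came from mice given the control virus AAV8-TBG-Control, and the 3 FOXA2H-KO libraries from mice given AAV8-TBG-Cre, in each case by tail vein 2 weeks before the first CCl4 dose. TBG is a hepatocyte promoter, so Cre acts in hepatocytes and spares the other liver cells. No library from mice without CCl4 was analysed here, so each value below is a level in injured liver and the comparison is between genotypes only.

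Nuclear receptors are transcription factors that a small lipophilic ligand switches on. Most of the 10 bind DNA as a pair with RXR, and corepressors leave and coactivators arrive when ligand binds. In hepatocytes PPARα drives fatty acid oxidation in fasting, LXRs respond to oxysterols by raising cholesterol export and lipogenesis, and PXR and CAR induce cytochromes P450 and transporters that clear drugs and bile acids. The thyroid hormone receptor THRβ controls cholesterol and lipid turnover, and RORα activates clock genes from the response elements at which REV-ERB represses them. RNA levels of a receptor do not report its ligand or its activity.

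FOXA2 is a forkhead factor, and the stretch before the transcription start of each receptor gene was therefore read for forkhead letters. Promoter windows of 250 bases from RefSeq on GRCm38.p6 were matched by symbol to all 10 members, which have 15 start sites in that table. The letters TGTTTAC were searched on both strands, along with the form TGTTTGC that differs near the end, the form TATTTAC that differs near the beginning and the form TATTTGC that differs at both places. They stood in 1 of the 15 windows, that of Nr1i2, with 3 matches, and in no window of the other 9 genes. At least 1 match was held by 11.9% of all 32851 promoter windows of that length, at least 2 by 1.13% and at least 3 by 0.0578%. The window of Nr1i2 is shown because it held the matches and because Nr1i2 was also the member whose groups did not overlap, and that of Ppara is shown beside it as a window without a match from a gene with a fitted change of nearly the same size. Both run 5′ to 3′ on the strand of the gene and end at the base before its RefSeq start. The gene positions given below are from another annotation, GENCODE M21. The Ppara window lies inside those bounds, as do windows of Rxra, Pparg, Thrb and Nr1h3, while that of Nr1i2 lies just before them. Capitals mark the forkhead letters, which lie on the opposite strand and so are read here as their reverse complement.
Nr1i2, chr16:38294825-38295074, minus strand: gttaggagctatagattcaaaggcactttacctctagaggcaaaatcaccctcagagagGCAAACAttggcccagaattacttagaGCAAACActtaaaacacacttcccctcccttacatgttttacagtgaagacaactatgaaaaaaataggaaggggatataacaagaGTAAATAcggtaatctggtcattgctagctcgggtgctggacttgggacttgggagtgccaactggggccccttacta
Ppara, chr15:85735526-85735775, plus strand: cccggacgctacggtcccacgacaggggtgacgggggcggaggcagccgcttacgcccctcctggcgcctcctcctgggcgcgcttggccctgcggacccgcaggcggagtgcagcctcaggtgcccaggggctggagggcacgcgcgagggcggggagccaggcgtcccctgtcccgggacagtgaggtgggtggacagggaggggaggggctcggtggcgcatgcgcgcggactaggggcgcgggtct
The matches before Nr1i2 began 191, 164 and 78 bases upstream of the start. The Nr1i2 window had a GC content of 44.0% and that of Ppara 76.4%, where the median of all windows was 52.4%, so AT-rich letters had unequal room in them. AGGTCA, the core letters to which nuclear receptors bind, occurred in windows of Rxra, Pparg and Thrb, and in 14.0% of all windows. A match is a description of letters, and no binding data were used here. A link between the matches and the values of Nr1i2 was not tested.

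The deleted gene was checked first. Foxa2 had 19.0, 13.5 and 16.4 CPM (counts per 1000000 counts in the library, on library sizes scaled by the trimmed mean of M values, TMM) in FOXA2f/f replicates 1, 2 and 4. In FOXA2H-KO replicates 1, 2 and 4 it had 1.03, 0.762 and 1.62 CPM. Foxa2 was 6.98% of the control level (log2 fold change −3.85, SE 0.31, adjusted p = 0.031 by the quasi-likelihood test of edgeR, with p adjusted after Benjamini and Hochberg), in the direction of the labels in all 3 knockout libraries. It was the only gene of 14417 called at an adjusted p under 0.05 and at least 2-fold, which is 0.00694% of the genes tested. DESeq2 called 70 genes and the exact test of edgeR 64, Foxa2 among them in both. With 1 library left out the log2 fold change of Foxa2 stayed between −4.17 and −3.63, but its adjusted p ran from 0.034 to 0.499 by edgeR and it was called only without FOXA2f/f replicate 2. It also missed the call with library size alone (adjusted p = 0.124 by edgeR), with the replicate number as a block (adjusted p = 0.054 by edgeR) and in both fits of the FPKM values by limma. Total counts ran from 20983455 to 28327765 per library. FOXA2f/f replicate 2 and FOXA2H-KO replicate 4 stood apart in several lipid and P450 genes given below, and values without them are given beside the target genes they moved most.

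None of the 10 receptor genes was called, against a background of 0.00694%, and none was called by DESeq2, which called 0.486% of all genes, or by edgeR's exact test, which called 0.444%. Their adjusted p ranged from 0.941 to 0.999. At an unadjusted p under 0.05, 1 member passed with the quasi-likelihood test, where 5.17% of all genes did, 1 with DESeq2 (5.67% of all genes) and 0 with the exact test (5.31%). Fitted values lay above 0 for 7 members and below 0 for 3, where 47.8% of all genes lay above and 52.2% below, and the median log2 fold change was 0.10 against −0.01 over all genes tested. The 3 libraries of one group lay beyond the 3 of the other for 1 member, Nr1i2, and for 10.5% of all genes (4.54% with the knockout higher, as for Nr1i2). The 95% interval of the change kept within 2-fold in either direction for 8 of the 10, with Pparg and Nr1i3 as the exceptions. An adjusted p near 1 does not show that the levels were equal.

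**Figure D1:**
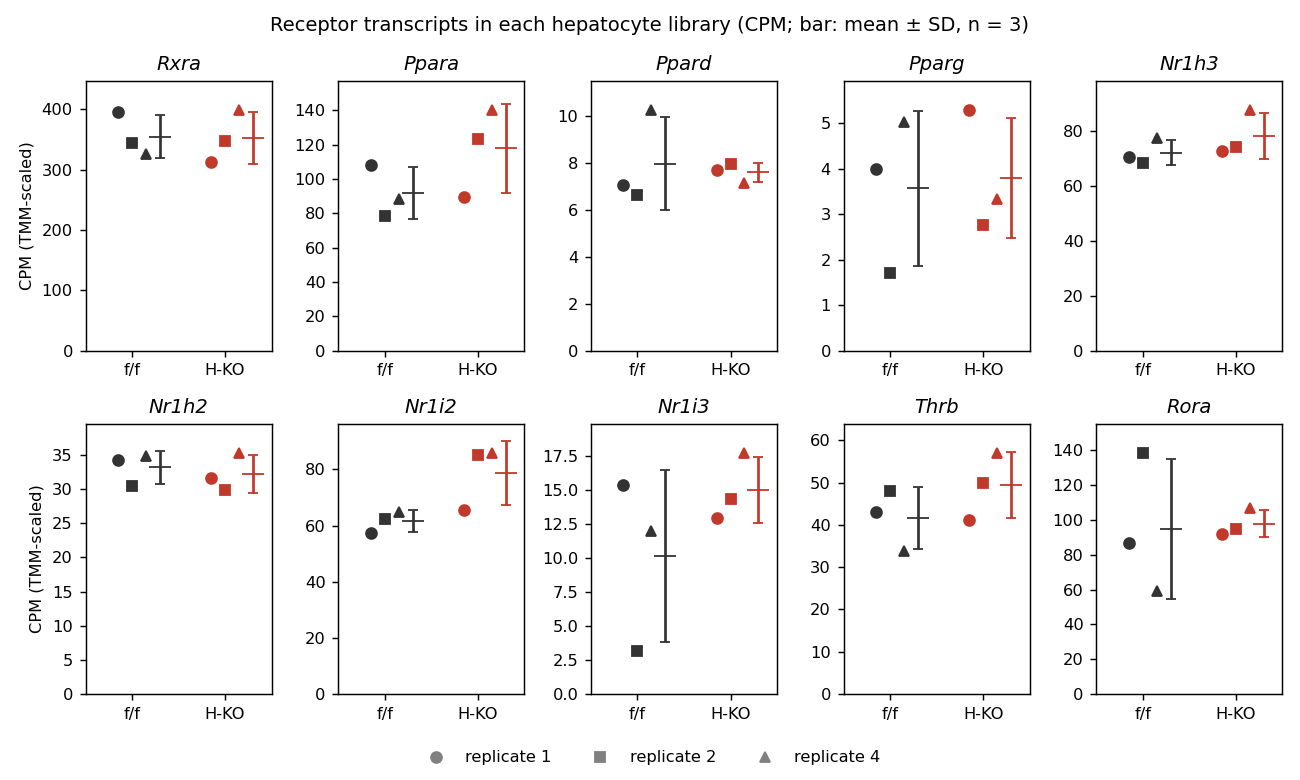
CPM of each receptor gene (y axis, from 0, a separate scale per panel) in the 3 FOXA2f/f (dark) and 3 FOXA2H-KO (red) libraries, with the marker shape giving the replicate number and the bar the mean ± SD. The groups overlap in 9 panels, and in the panel of Nr1i2 the lowest knockout library, 65.5 CPM, lies just above the highest control library, 64.9 CPM.

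Rxra (chr2:27676440-27762957, plus strand, GRCm38) encodes RXRα, the shared dimer partner of PPARs, LXRs, PXR, CAR and thyroid hormone receptors. It had 395, 344 and 325 CPM in FOXA2f/f and 313, 347 and 399 CPM in FOXA2H-KO replicates 1, 2 and 4. The ranges covered each other almost fully, with replicate 1 high in one group and low in the other. The means were 355 ± 36.0 and 353 ± 43.2 CPM (SD, n = 3 each), and the log2 fold change was −0.01 (SE 0.16, 95% interval −0.39 to 0.38, exact permutation p = 1.0). With 3 libraries against 3, the smallest p that such a two-sided permutation test can give is 0.1. Among the RXR genes, Rxra held 91.2 ± 0.84% of the summed per-length signal in FOXA2f/f and 91.7 ± 1.14% in FOXA2H-KO (share of FPKM, SD, n = 3). Its paralogues Rxrb and Rxrg, named here as paralogues, had log2 fold changes of −0.07 (SE 0.13) and −0.40 (SE 0.32), both with overlapping groups.

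Ppara (chr15:85734983-85802819, plus strand) encodes PPARα, which switches on peroxisomal and mitochondrial fatty acid oxidation. It had 108, 78.6 and 88.5 CPM in FOXA2f/f and 89.7, 123 and 140 CPM in FOXA2H-KO. All 3 knockout libraries lay above the control median of 88.5, yet knockout replicate 1 stayed below control replicate 1. The means were 91.7 ± 15.0 and 118 ± 25.6 CPM (SD, n = 3 each), a log2 fold change of 0.36 (SE 0.20, 95% interval −0.11 to 0.83, adjusted p = 0.957 by edgeR, exact permutation p = 0.2). Leaving out each library in turn gave 0.22, without FOXA2H-KO replicate 4, to 0.52.

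Ppard, the broadly expressed PPARβ/δ, had 7.04, 6.63 and 10.3 CPM in FOXA2f/f and 7.69, 7.98 and 7.17 CPM in FOXA2H-KO. The knockout libraries lay inside the control range, and the log2 fold change was −0.07 (SE 0.22, 95% interval −0.57 to 0.43). It was 0.15 without FOXA2f/f replicate 4, the high control library. Pparg, the fat-storage receptor that is low in healthy hepatocytes and present in macrophages and quiescent stellate cells, had 3.99, 1.70 and 5.02 CPM in FOXA2f/f and 5.30, 2.77 and 3.33 CPM in FOXA2H-KO. These rest on 31 to 158 counts per library. The log2 fold change of 0.08 had the second widest interval of the 10 (SE 0.43, −0.91 to 1.07) and was −0.25 without FOXA2f/f replicate 2 and 0.40 without FOXA2f/f replicate 4. The same control replicate 2 was lowest for Pparg and for the summed markers of every non-hepatocyte type listed below, and control replicate 4 was highest in the control group for Pparg and for the macrophage, stellate and endothelial sums. Their part in the Pparg values was not tested. By share of the summed PPAR FPKM, Ppara held 87.9 ± 3.43% in FOXA2f/f and 89.8 ± 3.60% in FOXA2H-KO (SD, n = 3, exact permutation p = 0.5).

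Nr1i2 (chr16:38248323-38294824, minus strand) was the member with the smallest p. It had 57.4, 62.3 and 64.9 CPM in FOXA2f/f and 65.5, 85.0 and 85.8 CPM in FOXA2H-KO, so every knockout library was above every control library, knockout replicate 1 by a small margin. The means were 61.5 ± 3.83 and 78.8 ± 11.5 CPM (SD, n = 3 each), 1.28-fold higher with an interval from 1.01 to 1.62. The log2 fold change was 0.36 (SE 0.14, unadjusted p = 0.040 and adjusted p = 0.941 by edgeR), which failed the correction, and 604 genes had a smaller p. The exact permutation p was 0.1, the smallest these libraries can give. The unadjusted p was 0.0457 with DESeq2 and 0.0596 with the exact test of edgeR. With each library left out in turn the value stayed between 0.30 and 0.47.

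Nr1i3, the other sensor of foreign compounds, gave 15.4, 3.13 and 12.0 CPM in FOXA2f/f and 12.9, 14.4 and 17.7 CPM in FOXA2H-KO. FOXA2f/f replicate 2 stood far below the other 5 libraries, with 57 counts where they had 352 to 383. The fitted log2 fold change of 0.55 was the highest of the 10 and the least certain (SE 0.48, 95% interval −0.56 to 1.67, exact permutation p = 0.4). It was 0.14 without FOXA2f/f replicate 2 and 0.98 without FOXA2f/f replicate 1. The count itself is uncertain. Of the exonic bases of Nr1i3 (chr1:171213970-171220701, plus strand), 74.9% lie over exons of Tomm40l on the opposite strand, a gene for a mitochondrial import protein that drew 67 to 180 counts. Whether the counting used strand is not given in the sources used here.

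Nr1h3 (chr2:91184061-91202834, minus strand) encodes LXRα, the main LXR of hepatocytes. It had 70.6, 68.4 and 77.3 CPM in FOXA2f/f and 72.5, 74.2 and 87.6 CPM in FOXA2H-KO, with overlapping groups and a log2 fold change of 0.12 (SE 0.13, 95% interval −0.19 to 0.42, exact permutation p = 0.4). Nr1h2, for the ubiquitous LXRβ, had 34.3, 30.4 and 34.9 CPM against 31.6, 29.8 and 35.3 CPM. Its log2 fold change of −0.04 had the smallest SE of the members (0.13, 95% interval −0.34 to 0.25). The share of Nr1h3 in the summed LXR FPKM was 77.5%, 79.0% and 78.8% in FOXA2f/f and 79.4%, 80.7% and 80.6% in FOXA2H-KO replicates 1, 2 and 4. The shares did not overlap between groups, but the difference of 1.78 percentage points was small and its exact permutation p was 0.1, the smallest possible. A share within a library does not depend on library size or scaling.

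Thrb (chr14:17660261-18038090, plus strand) had 43.0, 48.0 and 33.8 CPM in FOXA2f/f and 41.2, 50.0 and 57.0 CPM in FOXA2H-KO. The groups overlapped, and the log2 fold change was 0.25 (SE 0.18, 95% interval −0.17 to 0.66, exact permutation p = 0.3). Thrb held 63.7 ± 9.63% of the summed FPKM of Thrb and its paralogue Thra in FOXA2f/f and 71.1 ± 6.72% in FOXA2H-KO (SD, n = 3, exact permutation p = 0.4). Rora (chr9:68653786-69388246, plus strand) had 86.8, 138 and 59.1 CPM in FOXA2f/f and 92.2, 94.6 and 107 CPM in FOXA2H-KO. The control libraries spanned more than the knockout libraries, which all lay inside the control range. The log2 fold change of 0.05 (SE 0.28, 95% interval −0.61 to 0.71) was 0.43 without FOXA2f/f replicate 2, the highest, and −0.20 without FOXA2f/f replicate 4, the lowest.

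**Figure D2:**
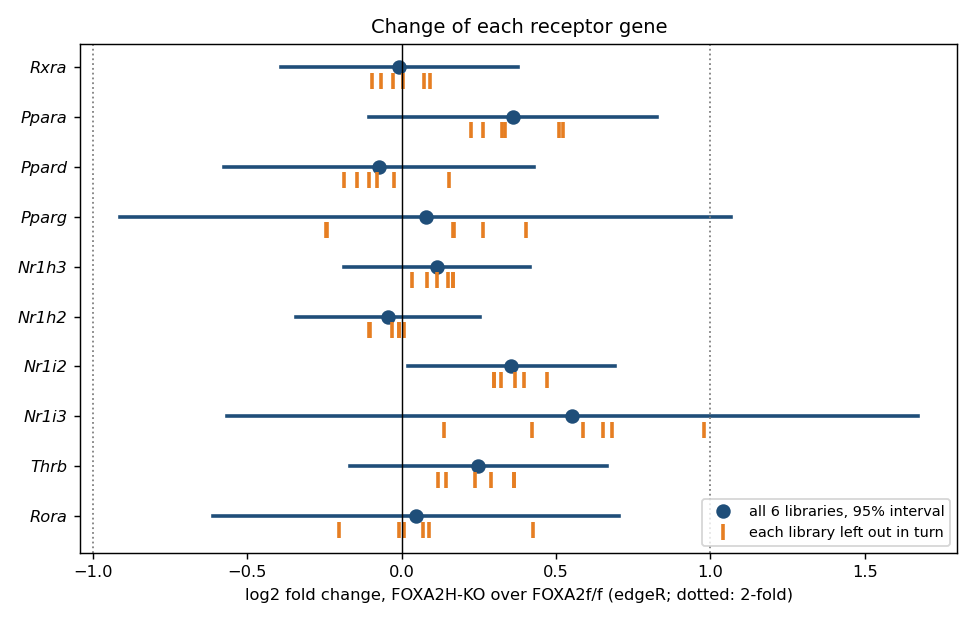
Log2 fold change of each receptor gene in FOXA2H-KO over FOXA2f/f (x axis; dots and blue lines are the edgeR estimate and its 95% interval from all 6 libraries, orange ticks the estimate with each library left out, dotted lines 2-fold). Only the interval of Nr1i2, 0.02 to 0.69, lies off 0, and ticks fall on both sides of 0 for Rxra, Ppard, Pparg, Nr1h2 and Rora.

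Some libraries were high or low for many members at once. FOXA2H-KO replicate 4 was the highest of the 6 libraries for 7 of the 10 receptor genes, and FOXA2f/f replicate 2 was the lowest for 5. The fitted change kept its sign in every alternative run for 5 members, namely Ppara, Nr1i2, Nr1i3, Nr1h3 and Thrb. The other 5 changed sign when 1 library was left out.

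The levels were ordered per length, by the deposited FPKM (fragments per kilobase of gene, scaled to the library total) over the 6 libraries. Rxra was highest, at a mean of 42.6 FPKM (range 36.1 to 47.8), followed by Nr1i2 at 27.7 (20.4 to 33.9), Ppara at 17.3 (11.3 to 23.0) and Nr1h3 at 14.6 (11.5 to 16.8). Rora at 6.39 FPKM, Nr1h2 at 3.78 and Thrb at 3.14 formed the middle, and Nr1i3 at 1.48, Ppard at 1.22 and Pparg at 0.915 the bottom. Ranges of neighbours were separate between Rxra and Nr1i2, between Nr1h3 and Rora and between Thrb and Nr1i3, and overlapped at the 6 other steps. Rxra exceeded 96.7% of the 22561 genes with a count, and Pparg 53.5% of them. The low place of Nr1i3 is uncertain on any length, because 74.9% of its exonic bases lie over exons of Tomm40l. The order also rests on gene lengths. With the same counts per kilobase of GENCODE M21 exons, a choice added after the data were seen, Rxra stayed first at 64.7, while Nr1h3 at 30.0 came level with Nr1i2 at 27.7 and Ppara at 27.4, Nr1h2 at 9.81 came above Rora at 7.28, and Pparg at 1.28 above Ppard at 1.05.

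**Figure D3:**
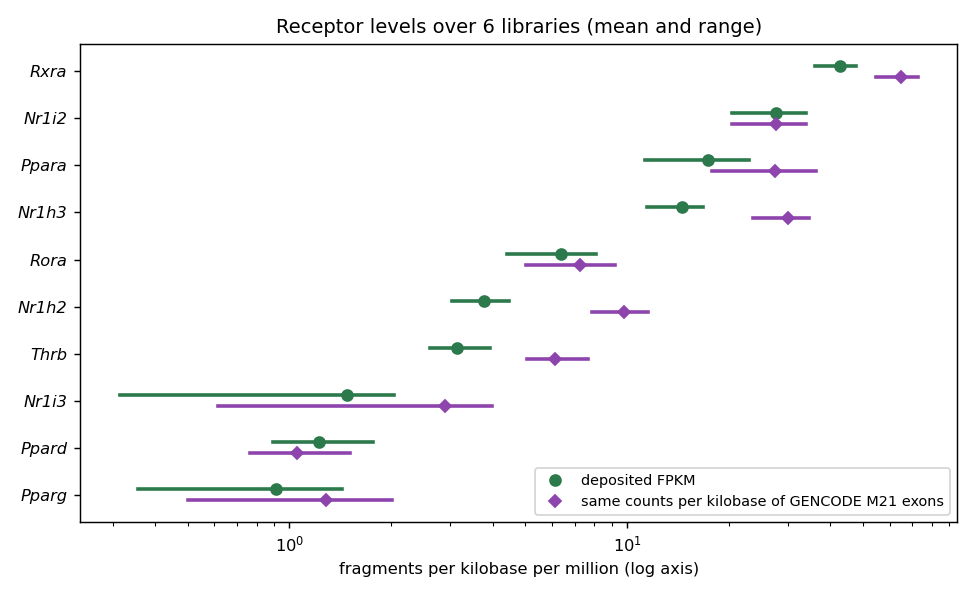
Mean level of each receptor gene over the 6 libraries (dot or diamond) with the lowest and highest library (line), on a log axis in the unit of FPKM, for the deposited FPKM (green) and for the same counts divided by GENCODE M21 exon lengths (purple). Rxra is highest on both scales, and Nr1i3, Ppard and Pparg are lowest on both. Both scales use the same Nr1i3 counts, which are uncertain because its exons overlap those of Tomm40l.

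Among 8294 genes with a mean of at least 10 CPM, the patterns most like those of the 3 members with the smallest p were found by the root mean square difference of centred log2 CPM over the 6 libraries. For Nr1i2 they were Ripk4 (0.040), Bcl2l1 (0.058) and Arhgef18 (0.074), where Nr1i2 itself spread by 0.22 about its mean. For Ppara they were Trim24 (0.096), Gzf1 (0.097) and Scoc (0.11), with a spread of 0.29. For Thrb they were Nectin2 (0.039), Slc25a13 (0.047) and Reps2 (0.048), with a spread of 0.24.

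Of 39 other nuclear receptors listed, 29 were tested. None was called by the quasi-likelihood test, and 1 was called by DESeq2 and by the exact test. Fitted values were above 0 for 9 and below for 20, with a median of −0.06, and 2 had an unadjusted p under 0.05 (5.17% of all genes). Without FOXA2f/f replicate 4, and likewise without FOXA2H-KO replicate 4, the count above 0 was 14 of 29. Nr3c2, the mineralocorticoid receptor, had 15.2, 14.5 and 13.4 CPM in FOXA2f/f against 7.80, 8.90 and 9.99 CPM in FOXA2H-KO, without overlap, at a log2 fold change of −0.69 (SE 0.16, adjusted p = 0.607 by edgeR). Nr2c2, an orphan receptor, had the third smallest p of the list, at 0.30 (SE 0.16).

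Of 20 coactivators and corepressors, all were tested, none was called by any of the 3 tests, and 3 had an unadjusted p under 0.05 (5.17% of all genes). The median log2 fold change was 0.01, with 13 above 0 and 7 below, and 9 to 14 above 0 with 1 library left out. The groups did not overlap for 3 with the knockout higher (4.54% of all genes) and 3 with it lower (5.96% of all genes). Nrip1, a corepressor of several nuclear receptors, had 14.3, 13.7 and 16.9 CPM in FOXA2f/f and 23.8, 20.6 and 22.2 CPM in FOXA2H-KO (log2 fold change 0.57, SE 0.15, adjusted p = 0.650 by edgeR). Tbl1xr1, of the NCoR corepressor complex, was at 0.45 (SE 0.15) and Pprc1, a PGC-1-related coactivator, at −0.34 (SE 0.14), each without overlap between groups.

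Known targets of the receptors were read from lists written by hand with earlier results of these data known. Their counts describe the lists and do not test for enrichment. No gene in them was called by the quasi-likelihood test. Of 23 PPARα targets, 19 had values above 0 and 4 below, with a median log2 fold change of 0.22. An unadjusted p under 0.05 was reached by 4, all above 0, where 5.17% of all genes reached it in either direction and 1.98% above 0. The median was 0.00, with 12 of 23 above 0, without FOXA2H-KO replicate 4. That library had 365 CPM of Cyp4a10, a fatty acid hydroxylase, where the other 5 had 10.6 to 36.1 CPM, and the log2 fold change of Cyp4a10 fell from 2.86 (SE 1.04) to 0.64 without it. Angptl4, a secreted inhibitor of lipoprotein lipase, had 145, 191 and 177 CPM in FOXA2f/f and 200, 217 and 269 CPM in FOXA2H-KO and was the list's gene without overlap (log2 fold change 0.42, SE 0.18). Acot1, an acyl-CoA thioesterase, was at 1.30 (SE 0.45) and at 0.67 without FOXA2H-KO replicate 4. Pdk4, the kinase that shuts pyruvate dehydrogenase in fasting, was at 1.11 (SE 0.47), with overlapping groups, and between 0.75 without FOXA2f/f replicate 2 and 1.78 without FOXA2f/f replicate 4. Of 8 PPARγ targets, 5 were tested and all 5 lay above 0, with a median of 0.91. Cidec, a lipid droplet protein, had 2.75, 2.03 and 0.890 CPM against 3.53, 4.01 and 11.7 CPM, a log2 fold change of 1.77 (SE 0.58) that was 1.01 without FOXA2H-KO replicate 4. G0s2 and Plin4 were at 1.36 (SE 0.61) and 0.91 (SE 0.63), with overlapping groups, and at 0.60 and 0.33 without that library, where the median of the list was 0.53.

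The 14 LXR targets lay mostly on the other side of 0, with 10 below and 4 above and a median log2 fold change of −0.46. Of the 14, 5 had an unadjusted p under 0.05, all below 0, where 5.17% of all genes reached it in either direction and 3.18% below 0. All knockout libraries lay below all control libraries for 5, where 10.5% of all genes had no overlap in either direction and 5.96% in this one. Abcg5 and Abcg8 encode the transporter that moves sterols into bile. Abcg5 had 114, 198 and 115 CPM in FOXA2f/f and 56.2, 92.2 and 64.5 CPM in FOXA2H-KO (log2 fold change −1.01, SE 0.28, adjusted p = 0.689 by edgeR). Abcg8 had 82.3, 133 and 113 CPM against 66.7, 70.3 and 67.9 CPM (−0.68, SE 0.18, adjusted p = 0.671 by edgeR). Srebf1, which encodes the lipogenic factor SREBP-1, had 302, 591 and 242 CPM against 161, 208 and 104 CPM (−1.26, SE 0.38), and Mlxipl, for the carbohydrate-responsive factor ChREBP, had 125, 239 and 189 CPM against 122, 116 and 69.2 CPM (−0.85, SE 0.29). FOXA2f/f replicate 2 was the highest library for all 4 of these genes. The fifth by p was Fasn, the fatty acid synthase, with 3706 CPM in FOXA2f/f replicate 2 and 147 to 457 CPM in the other 5 libraries. Its log2 fold change of −2.23 (SE 0.90) was −0.41 without that library. The fifth without overlap was Rnf145, a sterol-responsive ubiquitin ligase, at −0.48 (SE 0.21), and at −0.29 without FOXA2H-KO replicate 4. Without FOXA2f/f replicate 2 the values were −0.69 for Abcg5, −0.52 for Abcg8, −0.79 for Srebf1 and −0.61 for Mlxipl, and the median of the list was −0.36. Over all 6 libraries left out in turn, the median of the list stayed between −0.57 and −0.35. Both LXR genes themselves had intervals that include 0.

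Of 23 targets of PXR and CAR, 22 were tested, 8 above 0 and 14 below, with a median log2 fold change of −0.12. Of these, 5 had an unadjusted p under 0.05 (5.17% of all genes). Cyp2b10, the standard CAR target, had 70.2, 163 and 113 CPM in FOXA2f/f and 241, 181 and 246 CPM in FOXA2H-KO, without overlap (0.95, SE 0.30, adjusted p = 0.791 by edgeR). Cyp2a4 went the other way, with 7.60, 11.9 and 16.5 CPM against 1.66, 4.61 and 2.17 CPM (−2.09, SE 0.44, adjusted p = 0.579 by edgeR), and was called by DESeq2 (adjusted p = 0.00183) and the exact test. Its near-identical neighbour Cyp2a5 had 34.4, 42.4 and 59.1 CPM against 20.3, 19.9 and 1.94 CPM (−1.68, SE 0.69). The value of Cyp2a5 was −1.16 without FOXA2H-KO replicate 4, its lowest library. The reads of such paralogues can be hard to assign. Cyp2b9 was low, with 8.12, 0.219 and 2.00 CPM in FOXA2f/f and 0.0736, 0.962 and 0.0925 CPM in FOXA2H-KO, and its groups overlapped. Its value of −3.18 (SE 1.27) ran between −5.31 without FOXA2H-KO replicate 2 and −1.59 without FOXA2f/f replicate 1. Gsta2, a glutathione transferase, had 38.5 CPM in FOXA2f/f replicate 2 and 6.15 to 15.8 CPM in the other 5 libraries, and its value of −1.08 (SE 0.46) became −0.48 without that library.

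The 8 thyroid hormone targets had 1 value above 0 and 7 below, with a median log2 fold change of −0.31. Of these, 2 had an unadjusted p under 0.05 (5.17% of all genes). Bcl3, a nuclear IκB protein, had 16.0, 14.3 and 8.55 CPM in FOXA2f/f and 8.02, 6.38 and 5.55 CPM in FOXA2H-KO, without overlap (−0.96, SE 0.27). Me1, the malic enzyme that supplies NADPH to lipogenesis, and Thrsp, a lipogenic regulator, were at −1.75 (SE 0.72) and −1.69 (SE 0.85). Both rested on FOXA2f/f replicate 2 and were at −0.32 and −0.30 without it, while Thrsp was at −2.61 without FOXA2H-KO replicate 2. Of 8 targets of RORα and REV-ERB, 7 were tested, 4 above 0 and 3 below, with a median of 0.37. Only 1 had an unadjusted p under 0.05 (5.17% of all genes). Cyp8b1, the sterol hydroxylase that sets the make-up of bile acids, had 71.4 CPM in FOXA2f/f replicate 2 and 1.60 to 4.38 CPM in the other 5 libraries, so that its log2 fold change of −3.04 (SE 1.21) became −0.11 without that library. Clock and Cyp7b1 were at 0.44 (SE 0.20) and 1.04 (SE 0.58), with overlapping groups. Cyp7b1, the oxysterol hydroxylase, had 43.7 CPM in FOXA2f/f replicate 2 and 7.95 and 11.0 CPM in the other controls, against 39.5, 40.2 and 48.1 CPM in FOXA2H-KO, and was at 2.16 without that control. Of 9 carriers of thyroid hormone and fatty acids, 4 were above 0 and 5 below, with a median of −0.04. Only 1 had an unadjusted p under 0.05 (5.17% of all genes).

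**Figure D4:**
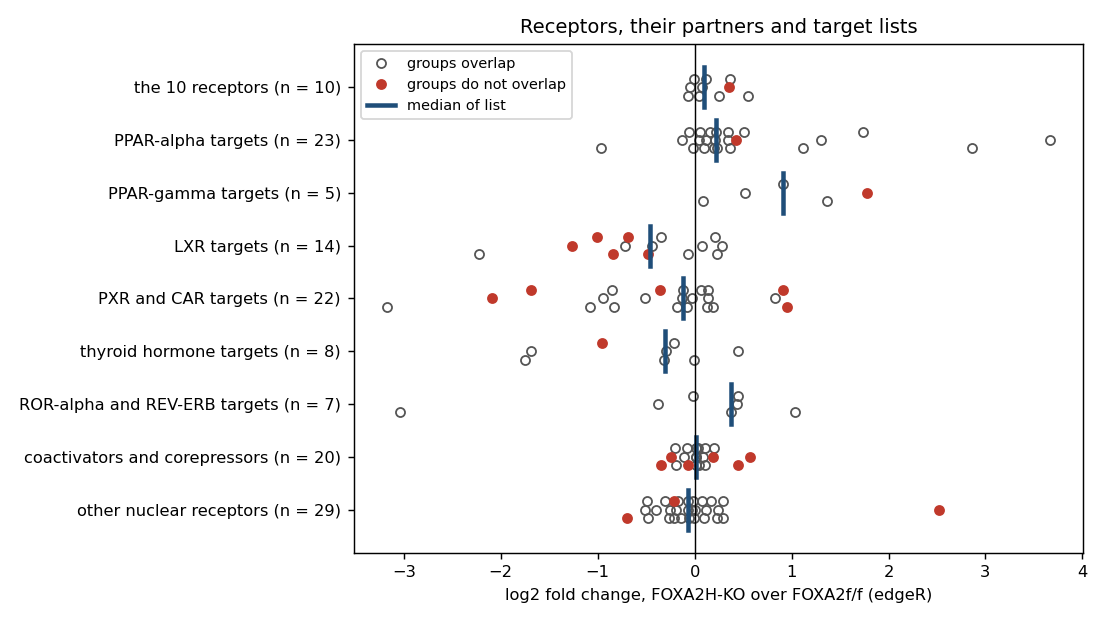
Log2 fold change (x axis, FOXA2H-KO over FOXA2f/f) of each tested gene, 1 circle per gene, in the 10 receptors and in the lists of targets, co-regulators and other nuclear receptors, with filled red circles for genes whose groups do not overlap and a blue bar for the median of the list. The 10 receptors lie between −0.07 and 0.55, while the LXR targets have a median of −0.46 and 5 red circles below 0. Red circles also stand in other lists, with 3 above 0 and 3 below for the co-regulators. The PXR and CAR targets have 2 above 0 and 3 below.

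The libraries carried the RNA of hepatocytes and some of other liver cells. The 10 hepatocyte markers, Alb and Apoa1 among them, summed to 116523 to 163906 CPM in FOXA2f/f and 113612 to 145983 CPM in FOXA2H-KO. The sums of 13 stellate cell and fibroblast markers were 1157 to 2988 and 1772 to 2742 CPM, those of 14 macrophage markers 697 to 3190 and 1545 to 2454 CPM, and those of 12 endothelial markers 278 to 925 and 447 to 585 CPM. Of cholangiocyte markers, 8 in number, the sums were 189 to 384 and 264 to 722 CPM. The 11 lymphocyte markers summed to 19.2 to 82.8 and 43.3 to 75.1 CPM and the 7 neutrophil markers to 8.39 to 73.1 and 18.6 to 29.5 CPM. No marker was at 0 in all libraries, and 4 lymphocyte markers and 1 neutrophil marker were at 0 in at least 1. Of the cholangiocyte markers tested, 6 of 7 lay above 0, with a median log2 fold change of 0.72. Among them, 2 had an unadjusted p under 0.05 (5.17% of all genes) and no overlap (10.5% of all genes, 4.54% with the knockout higher). The median was 0.21, with 5 of 7 above 0, without FOXA2H-KO replicate 1. Of the neutrophil markers tested, 4 of 6 lay below 0, with a median of −1.16. Their median was −1.61, with 0 of 6 above 0, without FOXA2f/f replicate 2. It was −0.77, with 3 of 6 above 0, without FOXA2f/f replicate 4. With all 6 libraries, 3 reached an unadjusted p under 0.05 (5.17% of all genes), all below 0 (3.18% of all genes) and all with overlapping groups. Macrophage markers lay above 0 in 12 of 14, stellate cell and fibroblast markers in 11 of 13, lymphocyte markers in 5 of 6 and endothelial markers in 4 of 12, and hepatocyte markers lay above 0 in 2 of 10. The macrophage, stellate and endothelial counts moved with single control libraries. Without FOXA2f/f replicate 2 they were 5 of 14, 7 of 13 and 1 of 12. Without FOXA2f/f replicate 4 they were 14 of 14, 12 of 13 and 12 of 12. None of these markers was called by any of the 3 tests. In each of these non-hepatocyte sums FOXA2f/f replicate 2 was the lowest of the 6 libraries, and it was also the lowest for Ppara, Ppard, Pparg, Nr1i3 and Nr1h3. The part of other cells in these values was not tested, and in bulk libraries fewer cells of a type and less RNA per cell cannot be told apart.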

How the data were processed

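RNA-seq of primary hepatocytes was analysed from the 6 per-library tables, 3 FOXA2f/f and 3 FOXA2H-KO, numbered 1, 2 and 4 in each group per the labels. The deposited tables carry the numbers 1 to 3 in their own names, and each was tied to its library by GEO's record of the sample it belongs to. The authors deposited whole-number counts per Ensembl gene without normalization and FPKM values, which follow from those counts, the library total and 1 length per gene. The submitters' processing notes name CASAVA 1.8, TopHat2 2.1.0, HTSeq, edgeR and the mm10 build. The annotation version and the strand setting are not given in the sources used here, so the counts of overlapping genes are uncertain. Libraries were made from poly-A RNA as paired-end TruSeq libraries, and hepatocytes were isolated by collagenase perfusion and low-speed centrifugation.

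Counts were fitted with edgeR 4.0.16 under R 4.3.3 (scaling by TMM, filterByExpr, quasi-likelihood test, no replicate block), fitted on all 14417 genes that passed, with Benjamini-Hochberg adjustment over all of them. A call needed an adjusted p under 0.05 and at least 2-fold. Fold changes are FOXA2H-KO over FOXA2f/f, and CPM uses TMM-scaled library sizes. For single values, an exact permutation test (two-sided) set the 3 libraries of one group against the other 3. DESeq2 1.42.0, the exact test, other scalings and filters, limma 3.58.1 on log2(FPKM + 1) and leave-one-out fits were the alternatives. The code was tested on simulated data. Within-group pairs of libraries differed far beyond counting noise (chi-square of 35.9 to 123 per degree of freedom), so each counted once. The labels do not say that each library is a separate mouse, and p-values then measure the spread between these libraries. Promoter sequences came from RefSeq (GRCm38.p6), and gene overlaps from GENCODE M21.

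The members and lists were chosen with earlier results of these data known. The genes named are the 10 members, Foxa2, per list the 3 with the smallest p and those without overlap at an unadjusted p under 0.05, and the 3 genes most like each of the 3 members with the smallest p. The paralogues Rxrb, Rxrg and Thra, Tomm40l for its overlap, and the list genes Fasn, Rnf145, Pdk4 and Gsta2 are named outside this rule, the last 4 after their values were seen. A few genes under the rule are not reported here.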

Additional observations from a re-analysis of the deposited data

How the results depend on the processing

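The count of called genes was 1, and 70 with DESeq2, 64 with the exact test, 2 without a filter, 0 with library size alone, 0 with limma on log2(FPKM + 1), 0 with the replicate block and 0 to 6 with 1 library left out (6 without FOXA2f/f replicate 2). No receptor gene was called in any of these, the lowest adjusted p being 0.287. Same-numbered libraries of the groups correlated at −0.069, 0.026 and −0.226 in their deviations. These values show no shared effect of the number, but they cannot settle whether the libraries were paired, and no pairing is stated. Under the replicate block no receptor changed sign and Nr1i3 was at 0.78. Library size alone moved the median of all genes from −0.01 to 0.10 and limma on log2(FPKM + 1) to 0.08, and with them small negative values turned positive. On the log2 scale Ppard became 0.016 and 0.029, Rxra 0.11 and 0.11, and Nr1h2 0.064 and 0.060. With limma on log2(FPKM + 0.1) Ppard was 0.071, Rxra 0.11 and Nr1h2 0.076, and with upper quartile scaling Rxra was 0.0043. The list median of other nuclear receptors became 0.050 and 0.093, and of co-regulators 0.13 and 0.10. Pparg was too low for the FPKM fits. Leaving out each library gave log2 fold changes from −0.19 to 0.15 for Ppard, −0.25 to 0.40 for Pparg, −0.096 to 0.092 for Rxra, −0.11 to 0.0086 for Nr1h2, −0.20 to 0.43 for Rora, 0.14 to 0.98 for Nr1i3, 0.22 to 0.52 for Ppara, 0.30 to 0.47 for Nr1i2, 0.03 to 0.17 for Nr1h3 and 0.12 to 0.37 for Thrb. List medians ranged from −0.15 to −0.0063 for other nuclear receptors, −0.039 to 0.13 for co-regulators, 0.00 to 0.34 for PPARα targets, 0.46 to 1.22 for PPARγ targets, −0.57 to −0.35 for LXR targets, −0.37 to −0.015 for PXR and CAR targets, 0.13 to 0.63 for RORα and REV-ERB targets, −0.50 to −0.25 for thyroid hormone targets and −0.11 to 0.060 for carriers. The cause of these shifts was not tested. The changes of Nr1i3, Pparg and Rora had the highest SE of the 10 and are the least precise.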
